A study of Mus musculus with 6 samples.

Results

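The transcripts described here are 40 mouse genes of mitosis and chromosome segregation, from the proliferation antigen Mki67 and the mitotic cyclins to kinetochore, spindle, cytokinesis and condensin genes. They were listed by symbol and looked up in the deposited count table, where each symbol had a single row, so all 40 were found among 22183 genes. The libraries were labelled as peritoneal endothelial cells (ECs) and came from wild-type, adult male C57BL/6J mice. In PD mice (n = 3), a glucose-based dialysis fluid, Dianeal, had been given into the peritoneal cavity every day for 6 weeks. Saline mice (n = 3) had received saline on the same schedule. The cells were taken from the mesentery and sorted for CD31, an endothelial surface protein that leukocytes and platelets also carry. The sample labels name magnetic sorting, whereas the supplementary methods of the study describe flow sorting of cells positive for CD31 and negative for the leukocyte protein CD45. Each library was a separate mouse and measured all sorted cells in bulk. In FPKM, the authors' values per transcript length and library size, Ptprc, the gene of CD45, averaged 624 in saline and 392 in PD mice, above Pecam1, the gene of CD31, at 145 and 158, and Cdh5, the endothelial cadherin, at 4.72 and 8.37. The values below are thus levels in sorted RNA that held leukocyte transcripts, and not levels in ECs alone.

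Mitosis is run by cyclin-dependent kinase 1 and its cyclin partners, which drive chromosome condensation, breakdown of the nuclear envelope and assembly of the spindle. Kinetochores then tie each chromosome to spindle microtubules, and the spindle checkpoint holds back the anaphase-promoting complex until every chromosome is attached. Cyclin B and securin are then destroyed, the sister chromatids part, and the cell is pinched into daughters. The genes for these proteins are switched on together late in the cell cycle, so their transcripts are used as a measure of cells in G2 phase and mitosis; the endothelium of a resting adult vessel holds few such cells.

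The members are shown first by the stretch of genome before the start site of 4 of them, because shared promoter elements are the classical trait of G2 and mitosis genes. The elements are the CCAAT box, which binds the factor NF-Y, and the cell cycle genes homology region (CHR, TTTGAA), which binds the DREAM and MuvB complexes. Sequences were taken from RefSeq annotation of the GRCm38.p6 assembly. The 250 bases upstream of the start site are given on the strand of the gene, with capitals for the CCAAT box, the CHR and its variant TTTAAA, each on either strand. Ccnb1 showed the largest fall of all members in PD mice, Cdc20 a fall with little spread, Top2a holds 6 CCAAT boxes, and Mki67 did not pass the test. These 4 were picked after their values were seen.
Ccnb1, chr13:100786487-100786736, minus strand: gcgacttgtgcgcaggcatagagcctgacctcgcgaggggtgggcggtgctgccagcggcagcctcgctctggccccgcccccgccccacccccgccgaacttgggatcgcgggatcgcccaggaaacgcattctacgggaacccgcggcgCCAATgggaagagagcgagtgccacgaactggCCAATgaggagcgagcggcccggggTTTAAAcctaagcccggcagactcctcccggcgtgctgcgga
Cdc20, chr4:118437344-118437593, minus strand: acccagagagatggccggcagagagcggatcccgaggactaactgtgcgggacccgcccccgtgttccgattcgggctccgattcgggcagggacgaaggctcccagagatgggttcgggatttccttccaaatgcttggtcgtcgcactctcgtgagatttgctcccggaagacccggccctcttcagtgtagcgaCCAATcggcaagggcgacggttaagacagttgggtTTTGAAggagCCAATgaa
Top2a, chr11:99024190-99024439, minus strand: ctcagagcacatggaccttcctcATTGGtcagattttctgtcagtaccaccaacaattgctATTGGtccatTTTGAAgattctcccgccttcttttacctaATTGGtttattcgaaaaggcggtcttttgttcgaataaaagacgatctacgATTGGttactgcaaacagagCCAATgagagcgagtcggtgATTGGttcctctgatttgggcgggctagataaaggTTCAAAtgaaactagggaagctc
Mki67, chr7:135716380-135716629, minus strand: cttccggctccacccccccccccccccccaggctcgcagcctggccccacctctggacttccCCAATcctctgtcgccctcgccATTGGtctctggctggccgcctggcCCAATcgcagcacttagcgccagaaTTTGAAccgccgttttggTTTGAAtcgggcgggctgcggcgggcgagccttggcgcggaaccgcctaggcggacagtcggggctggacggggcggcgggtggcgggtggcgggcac

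A CHR lay 18 bases before the start site of Cdc20, between CCAAT boxes at 53 and 8 bases. Ccnb1 had no TTTGAA in its window but held TTTAAA at 42 bases and CCAAT boxes at 99 and 67 bases. Mki67 held 3 CCAAT boxes and 2 copies of TTTGAA, at 116 and 98 bases. RefSeq promoter windows, from 250 bases before to 50 bases after the start site, were matched for 33 of the 40 members, with 36 windows in all since 3 members had a pair. TTTGAA occurred in 28 of these 36 windows (77.8%) and in 12.8% of the 13919 windows of genes tested here. CCAAT occurred in 28 of 36 (77.8%) and in 37.4% of the windows of tested genes. Both elements occurred in 25 of 36 (69.4%) in 5.1% of the windows of tested genes and in 7.0% of all 32851 windows. Among members that fell in PD mice, 17 of 24 windows (70.8%) held TTTGAA, and among members that did not pass the test 11 of 12 windows (91.7%) did. For a pair or more of CCAAT boxes the numbers were 13 of 24 and 6 of 12, and no difference between these groups of windows was tested. A match of letters is a description and was not tested for binding. Aurkb, Ccna2, Foxm1, Incenp, Kif20a, Smc4 and Tpx2 had no entry.

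Mitosis transcripts were lower in the sorted RNA of PD mice than in that of saline mice. Levels are given as CPM, the reads of a gene scaled to library size (total reads on genes times the TMM factor), and group values are mean ± SD (n = 3). The summed level of the 40 members was 1184, 1249 and 1166 CPM in the saline mice and 834, 889 and 887 CPM in the PD mice. All 3 PD mice lay below all 3 saline mice. Much of this sum came from Smc4 (means of 239 CPM in saline and 143 CPM in PD mice) and Bub3 (223 and 179 CPM). The median member was at 17.2, 18.3 and 18.6 CPM in the saline mice and 13.7, 15.6 and 14.2 CPM in the PD mice. By the quasi-likelihood test of edgeR, with p adjusted by Benjamini-Hochberg over 14005 genes and a threshold of 0.05, 25 of the 40 members (62.5%) fell, beside 27.9% of all genes tested. None rose (0 of 40), beside 30.5% of all genes, and 0 members were higher at an unadjusted edgeR p under 0.05. At an adjusted p under 0.05, 0 members were higher by DESeq2 or by limma-voom. The remaining 15 did not pass the test, 11 of them with negative and 4 with positive log2 fold changes.

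Fold changes are PD mice over saline mice on the log2 scale, ± SE. Their median over the 40 members was -0.45, beside 0.02 over all genes tested, and they ran from -0.89 for Ccnb1 to 0.35 for Foxm1. The members that fell were 17.5% to 45.9% lower, with a median of 32.5%. Of the 40 members, 11 were called with a fall of at least 1.5-fold and 0 with such a rise. Beside them, 4296 of the 14005 genes tested were called with such a change in either direction. Falls of this size among all genes were not counted apart, so the 11 members cannot be set against that share. For 30 members every PD mouse lay below every saline mouse, beside 31.6% of all genes, and for 0 members every PD mouse lay above, beside 34.0% of all genes. The other 10 overlapped between groups. Counts of single members in a mouse ran from 49 to 6275.

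These levels are shares of all sorted RNA, and the makeup of that RNA differed between groups. With the libraries scaled to 12 endothelial marker genes, all 40 members fell, with a median of -1.40. The median of all genes moved to -0.93 as well, and 11180 of 14005 genes were called in either direction. Falls among all genes were not counted apart under this scaling, so the 40 cannot be set against that share. Relative to all genes, the members' median was -0.47 under either scaling. A change of scaling shifts all genes by about the same amount, so this match says nothing about the makeup of the RNA. In bulk samples, fewer cells of a type and less RNA per cell cannot be told apart.

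**Figure D1:**
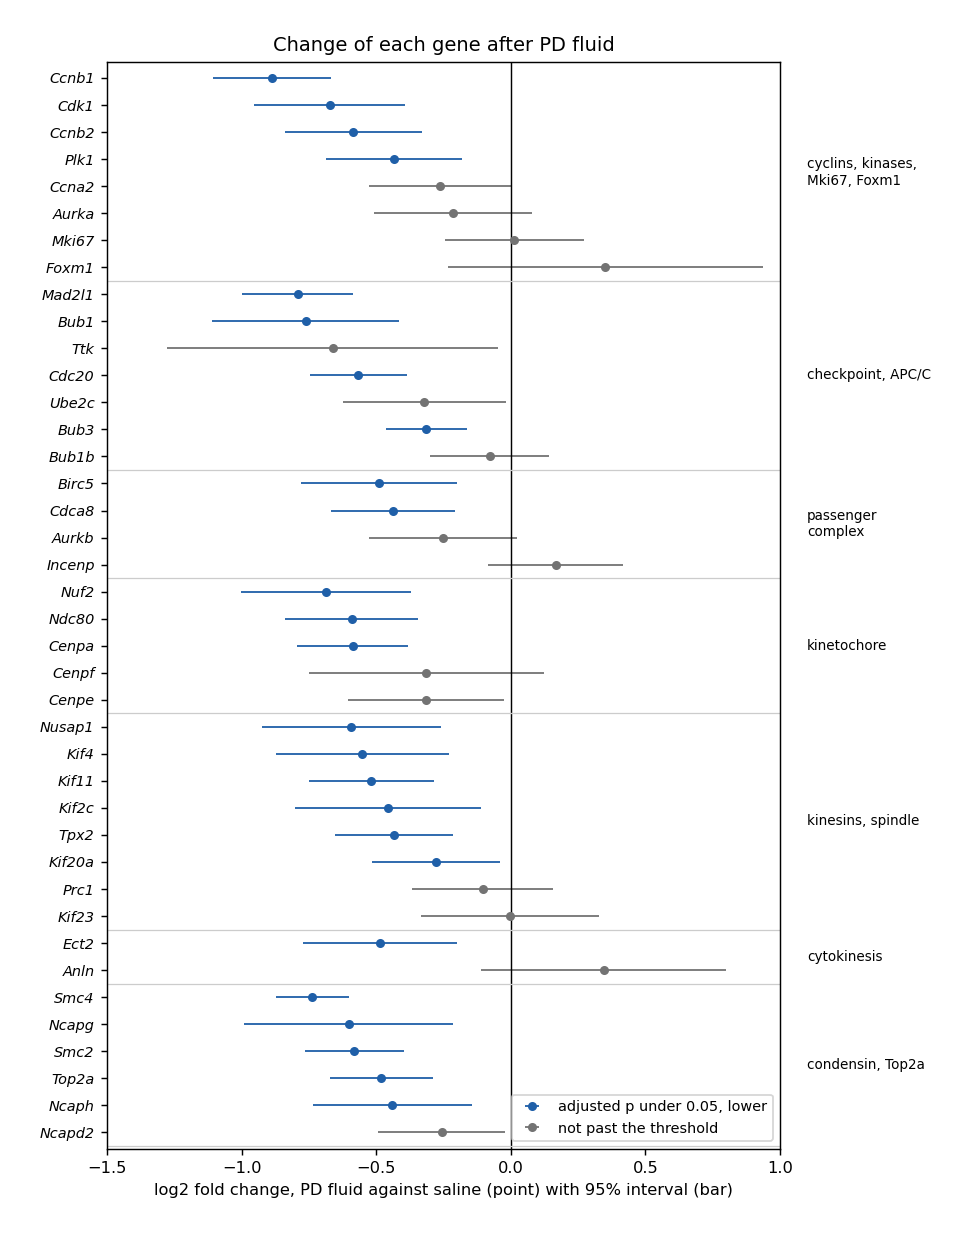
Log2 fold changes of the 40 members, PD mice over saline mice (x axis), with genes grouped by role (y axis). Points are estimates of edgeR's quasi-likelihood fit, bars are 95% confidence intervals, with the 25 members that fell in blue and the others in grey. Estimates run from -0.89 for Ccnb1 to 0.35 for Foxm1, and 36 of 40 lie below 0.

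Levels between genes were compared as FPKM. The checkpoint gene Bub3 had the highest mean over the 6 mice, 91.6 FPKM, and the condensin gene Smc4 came next with 77.6 FPKM. Both stood far above the third, the centromeric histone Cenpa, at 20.6 FPKM. Birc5 at 18.1 FPKM, Cdc20 at 17.2 FPKM and Ccnb2 at 16.5 FPKM followed, and their mouse-to-mouse ranges overlapped. Lowest were Foxm1 at 0.924 FPKM, Cenpf at 0.997 FPKM, Ttk at 1.12 FPKM and Mki67 at 1.38 FPKM. Of the 40 members, 27 reached a mean of 5 FPKM.

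Of the proliferation antigen, the mitotic cyclins and kinases and the transcription factor FOXM1, 4 of 8 genes fell and the median log2 fold change was -0.35. Ccnb1, which encodes cyclin B1, the main partner of CDK1 at entry into mitosis, was counted at 30.0, 35.3 and 30.1 CPM in the saline mice and 16.8, 16.9 and 17.8 CPM in the PD mice. Each saline mouse stood well above each PD mouse, and the level was 45.9% lower in PD mice (log2 fold change -0.89 ± 0.10, edgeR adjusted p = 9.87e-06). Ccnb2, the gene of the Golgi-linked cyclin B2, was at 27.7, 31.5 and 31.9 CPM in the saline mice and 17.3, 20.1 and 23.4 CPM in the PD mice. The groups did not overlap, with PD mouse 3 nearest to the saline mice, and the fall was 33.4% (-0.59 ± 0.12, edgeR adjusted p = 0.000960). Cdk1, the kinase that both cyclins activate, fell from 15.0 ± 1.63 to 9.42 ± 0.318 CPM, a log2 fold change of -0.67 ± 0.13 (edgeR adjusted p = 0.000697). Plk1, a kinase of centrosomes and kinetochores, was at 17.2, 18.1 and 18.5 CPM in the saline mice and 12.1, 13.0 and 14.7 CPM in the PD mice. All PD mice were lower, by 26.0% on average (-0.43 ± 0.12, edgeR adjusted p = 0.00644).

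The other 4 genes of this group did not pass the test. Mki67, whose product coats mitotic chromosomes and is the target of the Ki-67 stain, was at 13.8, 13.6 and 14.2 CPM in the saline mice and 15.4, 13.3 and 13.2 CPM in the PD mice. The groups overlapped, and the log2 fold change was 0.01 ± 0.12 with a 95% interval from -0.24 to 0.27 (edgeR adjusted p = 0.934). Ccna2, the gene of cyclin A2, which acts in S phase and G2, was at 15.5, 16.6 and 16.8 CPM in the saline mice and 13.4, 15.2 and 12.1 CPM in the PD mice. Its groups did not overlap, but the difference missed the threshold (-0.26 ± 0.12, edgeR adjusted p = 0.0784). Aurka, the kinase of centrosome maturation, was at 11.3, 10.1 and 9.56 CPM in the saline mice and 9.19, 8.72 and 8.74 CPM in the PD mice. PD mouse 1 came close to saline mouse 3, and the log2 fold change was -0.22 ± 0.14 (edgeR adjusted p = 0.187). Foxm1, which drives transcription of many G2 and mitosis genes, had few reads, at 3.44, 2.67 and 4.51 CPM in the saline mice and 5.99, 4.53 and 2.99 CPM in the PD mice. PD mouse 3 lay within the saline range, and the groups overlapped (log2 fold change 0.35 ± 0.27, 95% interval -0.24 to 0.94, edgeR adjusted p = 0.280).

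**Figure D2:**
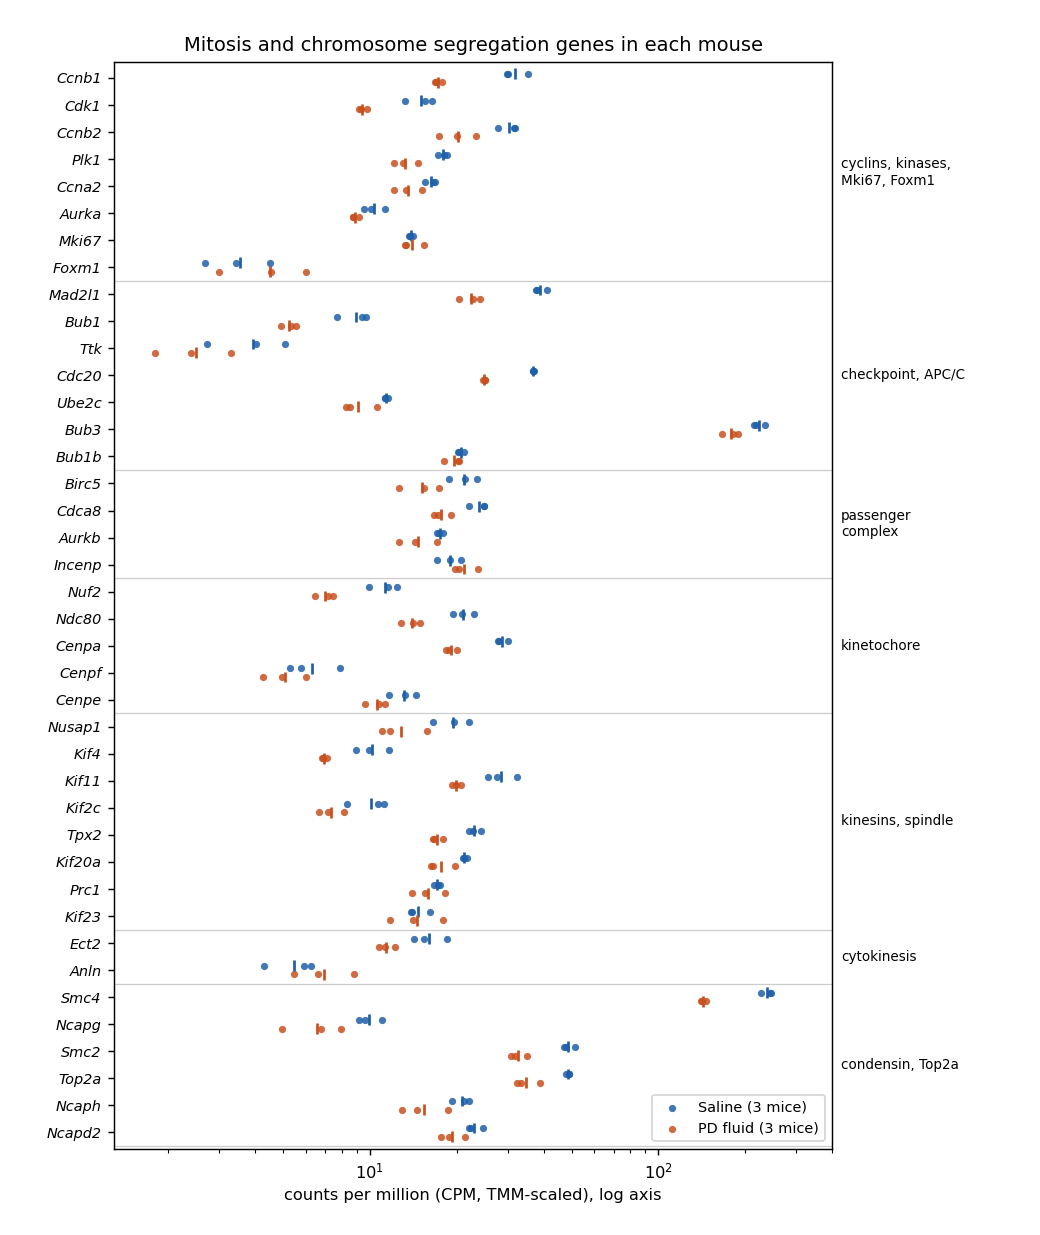
Levels of the 40 members, as CPM on a log x axis, with a blue point for each saline mouse, an orange point for each PD mouse and short vertical lines at the group means. Smc4, Mad2l1, Ccnb1 and Cdc20 separate the groups with room between them, whereas Mki67 and Bub1b overlap.

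Of the spindle checkpoint and the partners of the anaphase-promoting complex, 4 of 7 genes fell (median log2 fold change -0.57). Mad2l1 encodes MAD2, the protein that unattached kinetochores turn into an inhibitor of CDC20, and was at 37.9, 41.0 and 37.5 CPM in the saline mice and 20.4, 22.8 and 24.1 CPM in the PD mice. No PD mouse came near a saline mouse, and the level was 42.2% lower (-0.79 ± 0.10, edgeR adjusted p = 1.51e-05). Cdc20, the activator of the anaphase-promoting complex that MAD2 restrains, was at 36.6, 36.9 and 37.1 CPM in the saline mice and 25.0, 25.0 and 24.6 CPM in the PD mice. The mice of each group lay close together and far from the other group, and Cdc20 fell by 32.5% (-0.57 ± 0.08, edgeR adjusted p = 8.54e-05). Bub3, which brings checkpoint kinases to kinetochores and is expressed outside mitosis too, was at 218, 234 and 215 CPM in the saline mice and 166, 182 and 189 CPM in the PD mice. The fall was smaller in proportion, 19.6%, with no overlap (-0.31 ± 0.07, edgeR adjusted p = 0.00180). Bub1, a checkpoint kinase, dropped from 8.93 ± 1.08 to 5.25 ± 0.318 CPM (-0.76 ± 0.16, edgeR adjusted p = 0.00127).

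Bub1b, which encodes the checkpoint protein BUBR1, was at 20.4, 21.3 and 20.2 CPM in the saline mice and 18.1, 20.4 and 20.2 CPM in the PD mice and overlapped between groups. Its log2 fold change was -0.08 ± 0.10, with a 95% interval from -0.30 to 0.14 (edgeR adjusted p = 0.530). Ttk, the kinase MPS1 that starts checkpoint signalling, had low values, at 4.02, 5.07 and 2.73 CPM in the saline mice and 1.80, 2.39 and 3.31 CPM in the PD mice. Only PD mouse 3 reached into the saline range and saline mouse 3 was the lowest of its group (log2 fold change -0.66 ± 0.28, edgeR adjusted p = 0.0608). Without saline mouse 3 the log2 fold change of Ttk was -0.87 (edgeR adjusted p = 0.0212), and without PD mouse 3 it was -0.90 (edgeR adjusted p = 0.0264). Ube2c, the ubiquitin-conjugating enzyme of the anaphase-promoting complex, was at 11.3, 11.6 and 11.3 CPM in the saline mice and 8.24, 8.55 and 10.6 CPM in the PD mice. Its groups did not overlap, and the difference missed the threshold (-0.32 ± 0.14, edgeR adjusted p = 0.0645) but passed without PD mouse 3 (-0.43, edgeR adjusted p = 0.0269).

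Of the chromosomal passenger complex, which corrects faulty attachments and guides cytokinesis, 2 of 4 genes fell (median -0.34). Cdca8, the gene of borealin, was at 24.8, 24.9 and 22.1 CPM in the saline mice and 16.7, 17.2 and 19.2 CPM in the PD mice. PD mice were all lower, by 26.2% (-0.44 ± 0.11, edgeR adjusted p = 0.00337). Birc5, which encodes survivin, the subunit that docks the complex on centromeres, was at 21.3, 23.6 and 18.8 CPM in the saline mice and 12.7, 15.4 and 17.3 CPM in the PD mice. The highest PD mouse, mouse 3, stayed below the lowest saline mouse, and the fall was 28.8% (-0.49 ± 0.13, edgeR adjusted p = 0.00719). Aurkb, the kinase of the complex, was at 17.3, 18.0 and 17.1 CPM in the saline mice and 12.6, 17.1 and 14.3 CPM in the PD mice. PD mouse 2 equalled the lowest saline mouse at this precision, and the log2 fold change was -0.25 ± 0.13 (edgeR adjusted p = 0.105). Without PD mouse 2 it was -0.37 and passed the test (edgeR adjusted p = 0.0429). Incenp, the scaffold of the complex, went the other way in value, at 20.7, 17.1 and 19.0 CPM in the saline mice and 23.8, 20.3 and 19.7 CPM in the PD mice. Its groups overlapped and it did not pass the test (0.17 ± 0.12, 95% interval -0.08 to 0.42, edgeR adjusted p = 0.231).

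Of the centromere and kinetochore genes, 3 of 5 fell (median -0.59). Cenpa, the histone H3 variant that marks centromeres, was at 28.0, 30.1 and 27.9 CPM in the saline mice and 18.4, 18.8 and 20.0 CPM in the PD mice. The groups stood apart and the fall was 33.5% (-0.59 ± 0.10, edgeR adjusted p = 0.000185). Ndc80 and Nuf2 encode partners in the complex that grips the microtubule end. Ndc80 was at 19.5, 22.9 and 20.9 CPM in the saline mice and 14.1, 15.0 and 12.9 CPM in the PD mice, without overlap, and fell by 33.6% (-0.59 ± 0.11, edgeR adjusted p = 0.000709). Nuf2 was at 11.5, 12.4 and 9.93 CPM in the saline mice and 6.44, 7.13 and 7.47 CPM in the PD mice, likewise without overlap, and fell by 37.9% (-0.69 ± 0.15, edgeR adjusted p = 0.00142). The falls of the pair were thus of similar size, and their difference was not tested. Cenpe, a kinetochore motor, was at 11.7, 13.3 and 14.4 CPM in the saline mice and 9.60, 11.3 and 10.8 CPM in the PD mice. No PD mouse reached the saline range, and the log2 fold change of -0.31 ± 0.13 missed the threshold (edgeR adjusted p = 0.0595) but passed it without saline mouse 1 (-0.39, edgeR adjusted p = 0.0467). Cenpf, a large protein of the outer kinetochore, was at 7.85, 5.30 and 5.75 CPM in the saline mice and 4.96, 5.99 and 4.26 CPM in the PD mice, overlapped, and did not pass the test (-0.31 ± 0.20, edgeR adjusted p = 0.194).

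**Figure D3:**
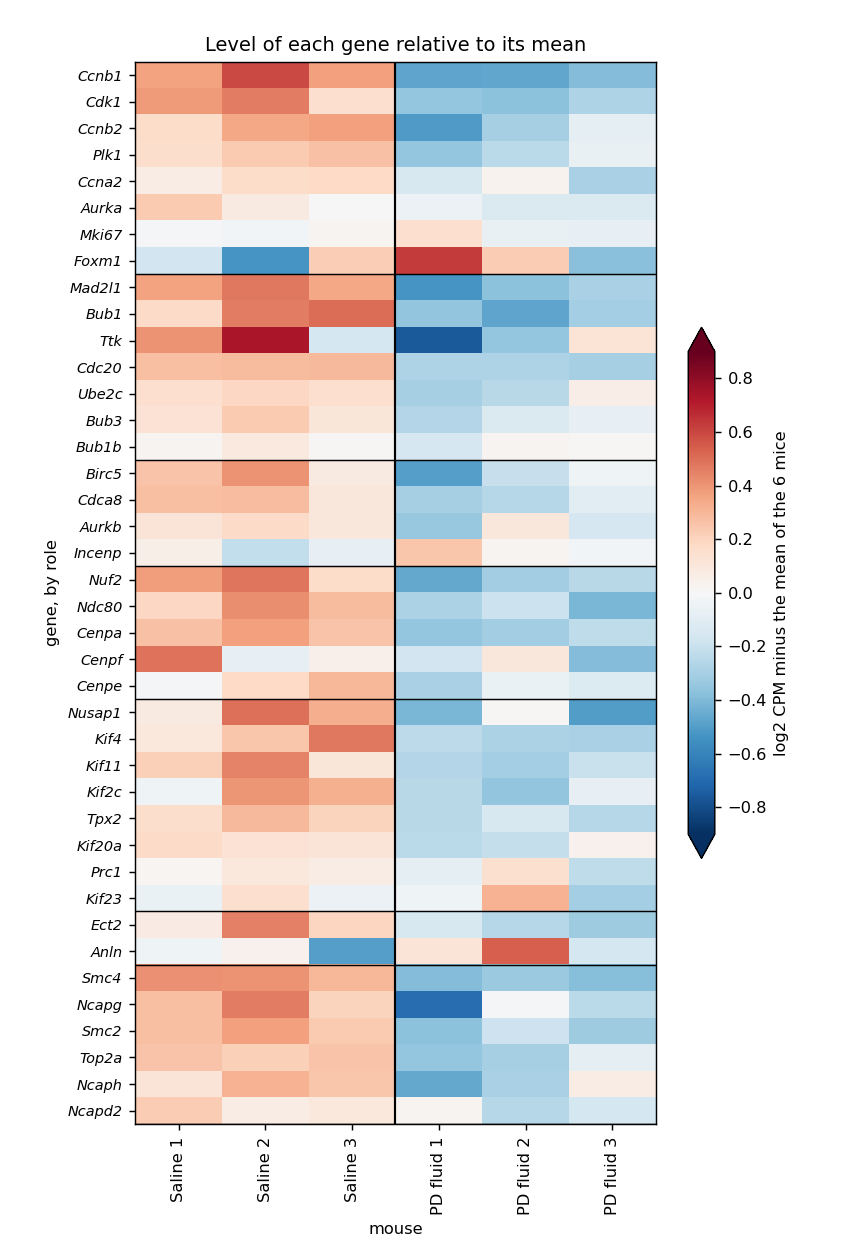
Level of each member in each mouse relative to its mean over the 6 mice, as log2, on a colour scale from -0.9 to 0.9, with members in rows by role and mice in columns. The saline columns are mostly above and the PD columns mostly below the mean, with exceptions such as Foxm1, Incenp and Anln.

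Of the kinesins and spindle proteins, 6 of 8 genes fell (median -0.45). Kif11, the motor that pushes spindle poles apart, was at 27.6, 32.4 and 25.7 CPM in the saline mice and 19.9, 19.2 and 20.7 CPM in the PD mice. All PD mice were lower, and the fall was 30.2% (-0.52 ± 0.11, edgeR adjusted p = 0.00118). Tpx2, which nucleates spindle microtubules and activates Aurora A, was at 22.1, 24.2 and 22.8 CPM in the saline mice and 16.7, 17.9 and 16.5 CPM in the PD mice. The groups did not overlap and the level fell by 26.0% (-0.43 ± 0.10, edgeR adjusted p = 0.00261). Nusap1, a microtubule-bundling protein, was at 16.6, 22.0 and 19.6 CPM in the saline mice and 11.7, 15.8 and 11.1 CPM in the PD mice. PD mouse 2 came closest to the saline mice (-0.59 ± 0.15, edgeR adjusted p = 0.00516). Kif4, a chromosome-bound kinesin, dropped from 10.2 ± 1.36 to 6.94 ± 0.140 CPM (-0.55 ± 0.15, edgeR adjusted p = 0.00662).

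Kif20a and Kif2c passed the test by less. Kif20a, a kinesin of the spindle midzone, was at 21.7, 21.1 and 20.9 CPM in the saline mice and 16.3, 16.6 and 19.8 CPM in the PD mice, without overlap, and fell by 17.5% (-0.28 ± 0.11, edgeR adjusted p = 0.0452). Its call was lost without any single mouse other than PD mouse 3, with log2 fold changes from -0.29 to -0.23 (edgeR adjusted p from 0.0599 to 0.166). Kif2c, a kinesin that shortens microtubules at centromeres, fell from 10.1 ± 1.53 to 7.31 ± 0.732 CPM (-0.46 ± 0.16, edgeR adjusted p = 0.0255). It was not called without saline mouse 2, saline mouse 3, PD mouse 1 or PD mouse 2 (edgeR adjusted p from 0.0686 to 0.108). Kif23, the motor of the centralspindlin complex, was at 13.9, 16.1 and 13.9 CPM in the saline mice and 14.1, 18.0 and 11.7 CPM in the PD mice. The PD mice spread on both sides of the saline mice, and the log2 fold change was -0.00 ± 0.15 (95% interval -0.33 to 0.33, edgeR adjusted p = 0.984). Prc1, which cross-links microtubules of the midzone, was at 16.6, 17.6 and 17.2 CPM in the saline mice and 15.5, 18.2 and 14.0 CPM in the PD mice, with overlap and no call (-0.11 ± 0.12, edgeR adjusted p = 0.474).

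Of the pair of cytokinesis genes, Ect2, the exchange factor that activates RhoA at the cleavage furrow, was at 14.2, 18.5 and 15.4 CPM in the saline mice and 12.2, 11.3 and 10.8 CPM in the PD mice. It fell by 28.6% without overlap (-0.49 ± 0.13, edgeR adjusted p = 0.00682). Anln, which encodes the furrow scaffold anillin, was at 5.89, 6.22 and 4.30 CPM in the saline mice and 6.58, 8.80 and 5.44 CPM in the PD mice. The groups overlapped and Anln did not pass the test (0.34 ± 0.21, 95% interval -0.11 to 0.80, edgeR adjusted p = 0.174).

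Of condensin and topoisomerase II, the proteins that compact and untangle chromosomes, 5 of 6 genes fell (median -0.53). Smc4, an ATPase of both condensins, was at 245, 244 and 227 CPM in the saline mice and 141, 146 and 142 CPM in the PD mice. The lowest saline mouse lay far above the highest PD mouse, and the fall was 40.1% (-0.74 ± 0.06, edgeR adjusted p = 5.61e-07). Smc2, the partner ATPase, was at 47.9, 51.4 and 46.9 CPM in the saline mice and 30.8, 35.0 and 31.9 CPM in the PD mice. It also showed no overlap, with a fall of 33.2% (-0.58 ± 0.09, edgeR adjusted p = 8.12e-05). Top2a, the topoisomerase of dividing cells, was at 49.0, 47.7 and 49.1 CPM in the saline mice and 32.3, 33.4 and 38.8 CPM in the PD mice. PD mouse 3 was the nearest to the saline mice, and the level fell by 28.4% (-0.48 ± 0.09, edgeR adjusted p = 0.000490).

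The 3 remaining members of this group encode subunits of condensin I. Ncapg fell from 9.92 ± 0.943 to 6.55 ± 1.49 CPM (-0.60 ± 0.18, edgeR adjusted p = 0.0114), and its call was lost without PD mouse 1 (-0.43, edgeR adjusted p = 0.0552). Ncaph fell from 20.8 ± 1.42 to 15.4 ± 2.95 CPM (-0.44 ± 0.14, edgeR adjusted p = 0.0141), and its call was lost without PD mouse 1 (-0.33, edgeR adjusted p = 0.0679) or PD mouse 2 (-0.39, edgeR adjusted p = 0.0652). Ncapd2 was at 24.6, 22.0 and 22.5 CPM in the saline mice and 21.3, 17.6 and 18.8 CPM in the PD mice. Its groups did not overlap, and it missed the threshold (-0.26 ± 0.11, edgeR adjusted p = 0.0567) but passed without PD mouse 1 (-0.34, edgeR adjusted p = 0.0303).

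For the 15 members that did not pass the test, the 95% interval of the difference lay within 1.5-fold either way in 9, and their median log2 fold change was -0.22. A p above the threshold does not show that these levels were equal. Exons of 9 members overlap those of a coding gene on the other strand, and the counting is not stated to use strand, so reads of such pairs cannot be told apart. For 4 members that fell, the partner fell too: Kif20a with Cdc23 (168 to 126 CPM, log2 fold change -0.42), Cdca8 with 9930104L06Rik (27.3 to 20.0 CPM, -0.45), Ncapg with Lcorl (51.7 to 38.5 CPM, -0.42) and Kif4 with Pdzd11 (27.5 to 22.0 CPM, -0.32). Reads of these partners could carry part of those falls, which was not tested. Ccna2, which was not called, overlaps Exosc9, which fell (-0.55, edgeR adjusted p = 5.35e-05). The partner of Cdc20, Elovl1, rose (0.20, edgeR adjusted p = 0.0230), and the partners of Nusap1 and Prc1, Oip5 (-0.04) and Rccd1 (-0.39), did not pass the test. Tnnc2, the partner of Ube2c, was not among the genes tested.

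The other genes of mitosis were read from a list of 106 genes outside the 40. The list includes Cdc23 and Oip5, named above as overlap partners of the members Kif20a and Nusap1. Of the 106 genes, 57 fell (53.8%) and 4 rose (3.8%), beside 27.9% and 30.5% of all genes tested. Their median log2 fold change was -0.36. At the low end, Knl1, the kinetochore scaffold that recruits BUB kinases, fell from 11.2 ± 1.33 to 5.49 ± 0.822 CPM (-1.03 ± 0.16, edgeR adjusted p = 0.000162). Cenph fell from 4.69 ± 0.318 to 2.48 ± 0.401 CPM (-0.92 ± 0.21, edgeR adjusted p = 0.00214), and its fellow inner kinetochore genes Cenpm (-0.78 ± 0.20, edgeR adjusted p = 0.00484) and Cenpw (-0.75 ± 0.16, edgeR adjusted p = 0.00182) fell as well. Cdc25c, a phosphatase that activates CDK1, was at -0.79 and missed the threshold (edgeR adjusted p = 0.0568), but passed without saline mouse 1 (-0.94, edgeR adjusted p = 0.0489). All 4 genes that rose were among the 5 highest. Espl1, the gene of separase, rose from 3.14 ± 1.05 to 6.15 ± 0.894 CPM (0.96 ± 0.24, edgeR adjusted p = 0.00353). Wee1, the kinase that inhibits CDK1, rose from 8.33 ± 1.75 to 14.4 ± 0.382 CPM (0.79 ± 0.15, edgeR adjusted p = 0.000739). Hjurp, the chaperone of the Cenpa protein, rose from 47.8 ± 1.47 to 60.0 ± 2.53 CPM (0.33 ± 0.07, edgeR adjusted p = 0.00217), while Cenpa fell. Racgap1, the partner of the Kif23 motor in centralspindlin, rose by 0.21 (edgeR adjusted p = 0.0355), a call lost with DESeq2 (adjusted p = 0.0621) and without saline mouse 1, PD mouse 2 or PD mouse 3 (edgeR adjusted p = 0.145, 0.125 and 0.0768). Depdc1b was at 0.24 without passing the test. Under endothelial scaling the estimates of Wee1, Hjurp, Racgap1 and Depdc1b turned negative, and that of Espl1 did not.

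**Figure D4:**
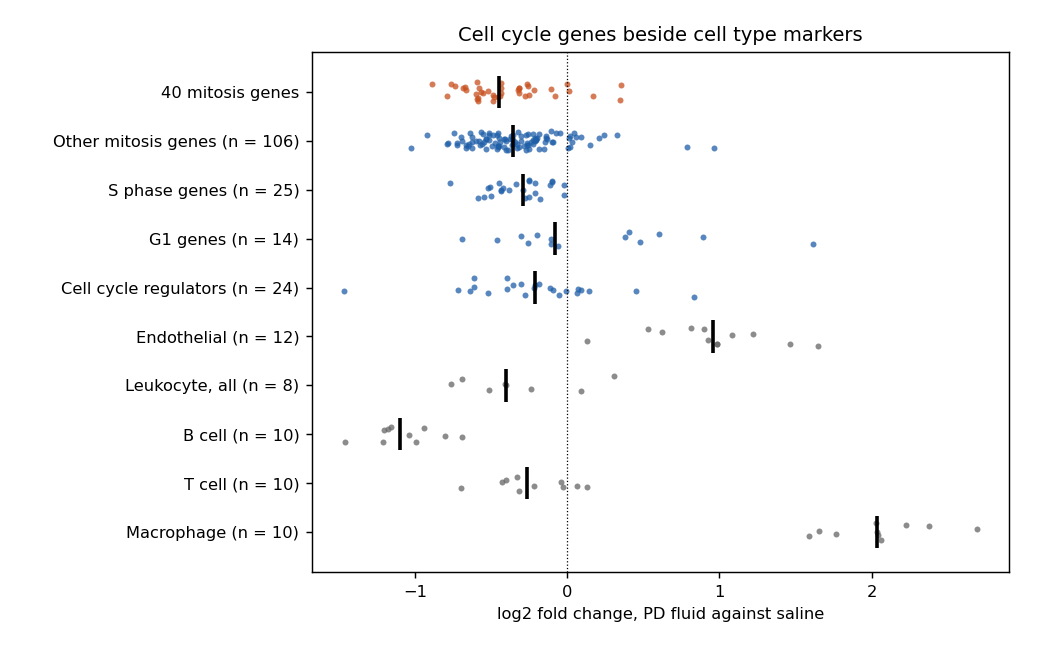
Log2 fold changes, PD mice over saline mice, of single genes (points) in the 40 mitosis genes, in other cell cycle lists and in marker lists of 5 cell classes, with a black line at each list's median. Medians of mitosis, other mitosis, S phase and B cell genes lie below 0, at -0.45, -0.36, -0.29 and -1.10. Those of general leukocyte, T cell, cell cycle regulator and G1 genes also lie below 0, at -0.40, -0.27, -0.21 and -0.08. Medians of endothelial and macrophage markers lie above 0, at 0.96 and 2.04.

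Marker lists of cell types moved in both directions between the groups, beside 27.9% of all genes tested that fell and 30.5% that rose. The libraries held 21973426 to 26374292 counted reads. Of 12 endothelial markers, 11 rose and 0 fell, with a summed level of 1202 to 1215 CPM in saline and 1942 to 2031 CPM in PD mice. Pecam1 did not pass the test (log2 fold change 0.13, edgeR adjusted p = 0.0837) but did without saline mouse 2 (0.17, edgeR adjusted p = 0.0285), and Cdh5 rose (0.82, edgeR adjusted p = 4.13e-05). All 10 B cell markers fell, from a sum of 7889 to 8341 CPM to one of 3748 to 3755 CPM, as did 6 of 8 general leukocyte markers (11994 to 12627 and 9014 to 9386 CPM), 3 of 6 germinal centre B cell markers (68.7 to 74.2 and 50.5 to 57.8 CPM) and 6 of 10 T cell markers (3357 to 3455 and 2560 to 2822 CPM). All 10 macrophage markers rose (2568 to 2696 and 10417 to 11272 CPM), and all 8 pancreatic acinar markers rose (1.99 to 4.84 and 4807 to 5116 CPM). No marker of these lists was at 0 in a whole group. The part of these cells in the fall of the mitosis genes was not tested, and the cells in which the transcripts were made cannot be told apart in bulk RNA.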

How the data were processed

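RNA was sequenced from peritoneal ECs of 3 saline and 3 PD mice, grouped by the sample labels, with library totals of 21973426 to 26374292 reads on genes. The authors deposited 1 table of 22183 genes with a raw read count for each mouse. They also deposited FPKM values for each mouse, used here only to compare levels between genes. The authors' group means, log2 ratio, p-value and FDR columns were not used, and 0 columns of sample values were unmatched. The submitters' processing notes name fastp 0.18.0, Bowtie2 2.2.8, HISAT2, StringTie 1.3.1 and RSEM, without roles. The genome build and the strand setting of the counting are not given in the sources used here.

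Counts were filtered with filterByExpr (14005 genes kept, all 40 members among them), scaled by TMM and tested with edgeR 4.0.16 in R 4.3.3 (quasi-likelihood, robust, two-sided, no covariate). Adjustment was by Benjamini-Hochberg over all genes tested, and calls were made at 0.05. Standard errors came from the quasi-likelihood statistic. The fit was tested on simulated data. Alternatives were DESeq2 1.42.0, limma-voom (limma 3.58.1), total count and endothelial marker scaling, no filter, a replicate block, a fold limit of 1.5 and leaving out each mouse. An exact permutation test of 3 against 3 mice cannot go below p = 0.1, so none was used. No counts of mice agreed within sampling noise.

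The members, gene lists and role groups were chosen with earlier results of these data known. Values in every mouse were given for the 3 members with the highest mean CPM, the highest and lowest fold change, and up to 3 members that were not called, in each role group. Of the other mitosis genes, the 5 highest and 5 lowest fold changes were named, of the cell cycle lists the highest and lowest, and of each marker list the first 2 genes, some of which are not reported here. Genes overlapping members were named after their values were seen. Motifs were searched with Python 3.11.15.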

Additional observations from a re-analysis of the deposited data

How the results depend on the processing

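All 25 members called lower had negative log2 fold changes under every alternative run, and 24 of them were still called with DESeq2, no filter or the replicate block. Scaling to endothelial markers gave 40 members lower (median -1.396), 104 other mitosis genes lower and 0 higher. Under that scaling 11180 of 14005 genes were called in either direction, without a separate count of falls, and the median of all genes was -0.929. A fold limit of 1.5 left 4296 of 14005 genes called in either direction, without a separate count of falls. It left 11 of 40 members lower and 0 higher, and 15 other mitosis genes lower and 2 higher. Kif20a was not called with DESeq2 (adjusted p = 0.0519), with no filter (edgeR adjusted p = 0.0529) or with the replicate block (edgeR adjusted p = 0.0657). Ube2c was called with limma-voom (adjusted p = 0.0497) and Ttk with no filter (edgeR adjusted p = 0.0455). Leaving out 1 mouse gave 22 to 27 members lower, 0 higher, medians of -0.4993 to -0.4089, 45 to 55 other mitosis genes lower, 3 to 4 higher and 6971 to 7972 genes called.

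Endothelial scaling turned negative the log2 fold changes of Mki67 (-0.94), Foxm1 (-0.60), Incenp (-0.78), Anln (-0.61), Racgap1 (-0.74), Depdc1b (-0.70), Hjurp (-0.62), Wee1 (-0.16), E2f1 (-0.11), Pecam1 (-0.82), Cdh5 (-0.13), S1pr2 (-0.43), Sdc1 (-0.24), Jchain (-0.087), Cd3e (-0.88), Ncr1 (-0.63), Klrb1c (-0.57), Flt3 (-0.58), Zbtb46 (-0.29), Cpa3 (-0.63), Kit (-0.11), Rgs5 (-0.69) and Epcam (-0.84), as it lowered all genes. Pecam1 and Cdh5 are among the 12 markers that set this scale, so their signs only show their place within that list. Estimates near 0 changed sign elsewhere: Kif23 with total count scaling (0.0084), and Pold1 with limma-voom (0.0022) and the replicate block (0.0026). Without 1 mouse, Kif23 ran from -0.17 to 0.13, Mki67 from -0.067 to 0.058, Pold1 from -0.22 to 0.13, Cd3e from -1.97e-05 to 0.15 and Epcam from -0.036 to 0.22.

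Both groups carry replicate numbers 1 to 3, and the labels do not state a pairing. Deviations from the group means correlated across genes at 0.188, 0.0671 and -0.274 for the same number. For different numbers the correlations ran from -0.411 to 0.356, and not every mouse correlated best with its own number. So few values cannot show whether the mice were paired. With the replicate block, 24 members were lower, 0 higher, with a median of -0.4505, 55 other mitosis genes were lower and 4 higher, and 7887 genes were called. Low counts limit Foxm1, Ttk, Cenpf and Anln most.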

Other observations

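Beyond mitosis, S phase genes also fell. Of 25 genes of DNA replication, 16 fell (64.0%) and 0 rose by edgeR, beside 27.9% and 30.5% of all genes tested. Of these 25, 0 were higher with an unadjusted p under 0.05, and the median log2 fold change was -0.29. Gins1, a subunit of the replicative helicase, fell by 0.77 (edgeR adjusted p = 0.00487), and Pold1, the catalytic subunit of DNA polymerase delta, was highest at -0.02 without passing the test. Of 24 regulators of the cell cycle, 12 fell and 1 rose (median -0.21). Mybl1 fell by 1.47 (edgeR adjusted p = 0.0123), a call lost without PD mouse 3 (-1.11, edgeR adjusted p = 0.0502), and E2f1, a factor that drives entry into S phase, rose by 0.83 (edgeR adjusted p = 0.00173). Of 14 G1 genes tested, 3 fell (21.4%) and 6 rose (42.9%), with a median of -0.08. The highest and the lowest fold change of this list both belonged to genes of inhibitors of cyclin-dependent kinases. Cdkn1a, the gene of p21, rose from 50.8 ± 4.93 to 155 ± 13.7 CPM (log2 fold change 1.61 ± 0.09, edgeR adjusted p = 7.48e-09), with every PD mouse above every saline mouse. Cdkn1b, the gene of p27, fell from 19.5 ± 2.51 to 12.1 ± 2.19 CPM (-0.69 ± 0.15, edgeR adjusted p = 0.00154).

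Markers of the cell types in a sort from mesentery are given by leading genes of each list, as log2 fold changes by edgeR, with the counts of the whole list. Of all genes tested, 27.9% fell and 30.5% rose. Of general leukocyte markers, 6 of 8 fell and 1 rose (Ptprc -0.69, Coro1a -0.40). All 10 B cell markers fell (Cd79a -1.21). Of 10 T cell markers 6 fell and 0 rose, with Cd3d at -0.32 and Cd3e, which did not pass the test, at 0.06. All 10 macrophage markers (Adgre1 2.04, Csf1r 1.77) and all 5 neutrophil markers tested rose (S100a8 5.87, S100a9 5.32).

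Other leukocyte lists were mixed. Of 6 plasma cell markers 4 rose (Sdc1 0.70, Jchain 0.86) and 1 fell. Of 6 dendritic cell markers 3 rose and 1 fell (Flt3 0.37, Zbtb46 0.66), while their summed level went from 583 to 620 CPM in saline mice to 523 to 527 CPM in PD mice. Of 6 NK cell markers 4 rose and 0 fell. Among them Ncr1 (0.32) was not called with DESeq2 (adjusted p = 0.0798), no filter, the replicate block or without any single mouse other than PD mouse 3 (edgeR adjusted p from 0.0618 to 0.205). Klrb1c (0.37) was not called without saline mouse 1, PD mouse 2 or PD mouse 3 (edgeR adjusted p from 0.0827 to 0.112). All 6 mast cell markers rose (Cpa3 0.31, Kit 0.83), and the call of Cpa3 was lost without saline mouse 1 or 3 (edgeR adjusted p = 0.0542 and 0.0545). Of 6 germinal centre markers 3 fell and 1, S1pr2, rose (0.52), a call lost without saline mouse 3 or PD mouse 1 (edgeR adjusted p = 0.0557 and 0.0914). Of 5 erythroid markers tested 2 rose, by up to 1.26, and 1, Hba-a1, fell (-0.34). Hbb-bs did not pass the test (-0.18), but was called lower without saline mouse 3 or PD mouse 1 (edgeR adjusted p = 0.0114 and 0.0499).

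All 8 mesothelial (Msln 3.92, Upk3b 3.06), all 8 fibroblast (Pdgfra 2.35, Dcn 3.19) and all 8 pancreatic acinar markers rose (Cela1 7.55, Prss2 10.83), as did 7 of 8 pericyte and smooth muscle markers (Pdgfrb 1.09, Rgs5 0.26), with the call of Rgs5 lost without saline mouse 1 (edgeR adjusted p = 0.0566). Of 4 markers of gut epithelium tested 2 rose, Epcam did not pass (0.11), and Vil1 had too few reads to be tested. The part of these cells in the fall of the mitosis genes was not tested.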
